A study of Homo sapiens with 2 samples.

Results

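Among 7550 nonadherent cells made from human induced pluripotent stem cells, 567 held transcripts of calprotectin together with transcripts of azurophil granule proteins. Calprotectin is the S100A8 and S100A9 pair of calcium-binding proteins that fills the cytosol of neutrophils and monocytes. Transcripts of the pair were counted together, so some of the 567 cells had UMIs of S100A9 and none of S100A8. The 567 cells are called S100-high granule cells here. The cells were selected on measured values: at least 10 UMIs (unique molecular identifiers, each standing for one captured transcript) of S100A8 and S100A9 together, at least 20 of ELANE, PRTN3, AZU1 and MPO together, fewer than 10 of C1QA, C1QB and C1QC together, and not both EPX and PRG2 at 10 or more. The levels of these 11 genes are therefore a description and not a finding, and because the remaining genes were read in the same cells, no test was made of them either.

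The cells came from iPS11, an established induced pluripotent stem cell line. CD34+ cells were taken from differentiating aggregates and cultured for 5 days of the endothelial-to-hematopoietic transition (EHT), in which blood cells bud from endothelium, in a defined medium that contained stem cell factor, interleukins, thrombopoietin, Flt3 ligand and other growth factors in every condition. The plates were uncoated or coated with VCAM1, DLL4, or DLL4 and VCAM1 together. Nonadherent cells of 3 wells were combined for each coating, each combination was labeled with 1 hashtag antibody (0252, 0253, 0254 or 0255), and the 4 combinations were captured as 1 library. The sources used here do not tie a hashtag to a coating, so values are given by hashtag, as 4 separately labeled cultures of different and unnamed condition. There were no replicates, and p-values were not computed. Intervals are exact Poisson (for levels) or Clopper-Pearson (for shares) 95% intervals that cover counting error only.

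As background, neutrophils and monocytes develop from a common progenitor. On the neutrophil path, promyelocytes fill azurophil granules with MPO and serine proteases, myelocytes then switch to specific granule proteins such as lactoferrin under the factor CEBPE, and mature cells add gelatinase granules and chemokine and Fc receptors. Calprotectin, lysozyme and resistin are made by both lineages, while VCAN, CSF1R and HLA class II genes are typical of monocytes and their progeny.

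The 567 cells held 9549830 UMIs, with a median of 15960 UMIs and 4072 genes per cell and 10.7% of UMIs on mitochondrial genes. They were compared with 722 S100-low granule cells, which met the same rule but had fewer than 10 UMIs of S100A8 and S100A9, and with 645 C1Q cells, which had at least 10 UMIs of the C1Q genes that mark macrophages. The S100-low granule cells were deeper, with a median of 22054 UMIs and 11.7% mitochondrial UMIs, and the C1Q cells shallower, with 13496 UMIs and 13.5%. Levels are UMIs of a gene per 1000000 UMIs of the group (CPM). Since the minimums are in raw UMIs, a deeper cell passes them more easily.

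The chosen genes were abundant. S100A9 was at 1947 CPM (1919 to 1975) and S100A8 at 645.8 CPM (630 to 662) in the S100-high cells, against 112 and 8.25 CPM in the S100-low cells. By hashtag in the order 0252, 0253, 0254 and 0255, S100A9 was at 2039, 2011, 1788 and 984 CPM. The median cell had 32 UMIs of the pair, with 10th and 90th percentiles of 12 and 86, and 1 cell reached 360. S100A8 alone had a median of 5 UMIs and a 10th percentile of 0, and S100A9 alone 26 and 11. Among the granule genes, PRTN3 was at 9021 CPM, MPO, the peroxidase that makes hypochlorous acid, at 8623 CPM, and AZU1 (azurocidin) at 872 CPM. ELANE, neutrophil elastase, was at 202 CPM and was found in only 35.4% of the S100-high cells, whereas MPO was found in all of them. In the S100-low cells, PRTN3, MPO, AZU1 and ELANE were at 3140, 3826, 302 and 37.9 CPM. The median granule sum was 258 UMIs in S100-high and 71 in S100-low cells, so the groups differ in these genes as well as in S100A8 and S100A9. Of 171 globin-rich cells, with at least 100 UMIs of globin genes, 3 were themselves S100-high cells and were left out after the data were seen. The other 168 served as a background and had a median of 20225 UMIs. In them, MPO was found in 66.1%, PRTN3 in 45.2%, S100A9 in 7.74% and ELANE in 0% of cells. A few UMIs of MPO or PRTN3 thus do not set a cell apart from globin-rich cells. Whether those UMIs were free RNA or the cells' own was not tested. The minimum of 20 UMIs lies above the 10th to 90th percentile range of the granule sum in globin-rich cells (0 to 4 UMIs).

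On hg19, S100A8 lies at chr1:153362508-153363549 on the minus strand and S100A9 at chr1:153330330-153333499 on the plus strand. PRTN3 (chr19:840999-848175), AZU1 (chr19:825097-832018) and ELANE (chr19:851014-856247) adjoin one another on the plus strand of chromosome 19, and MPO is at chr17:56347216-56358296 on the minus strand. The promoters of S100A9 and PRTN3 are shown because these 2 genes were the most abundant of the 2 sums of the rule. The sequences are RefSeq's, the 250 bases before the transcript start on the plus strand of GRCh38.p14, chr1:153357604-153357853 and chr19:840749-840998. Capitals mark matches, on either strand, to TTGCNNAA, a core of the C/EBP motif, or to GAGGAAGT, a form of the PU.1 motif.

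S100A9: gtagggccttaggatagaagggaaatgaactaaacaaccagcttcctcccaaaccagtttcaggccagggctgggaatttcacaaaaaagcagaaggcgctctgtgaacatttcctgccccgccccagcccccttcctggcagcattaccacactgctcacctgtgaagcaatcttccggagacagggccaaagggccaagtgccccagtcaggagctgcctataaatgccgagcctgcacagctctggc

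PRTN3: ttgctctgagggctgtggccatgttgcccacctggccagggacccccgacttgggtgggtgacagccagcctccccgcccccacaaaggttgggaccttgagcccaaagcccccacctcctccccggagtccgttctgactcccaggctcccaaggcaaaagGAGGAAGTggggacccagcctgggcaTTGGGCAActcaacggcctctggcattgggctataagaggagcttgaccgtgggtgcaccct

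The PRTN3 promoter held both, the PU.1 letters from base 163 and the C/EBP letters, read on the other strand, from base 189, and the S100A9 promoter held neither. With 50 bases after the start included, the C/EBP letters were present in 10.5% of 35116 RefSeq promoter windows and the PU.1 letters in 2.59%. The windows of S100A8, 3 in number, held neither, the AZU1 and MNDA windows held the C/EBP letters, and those of RETN, CEBPE, VCAN and CHI3L1 held neither. Of the 201 windows that belong to genes higher in S100-high than in S100-low cells (below), 29 (14.4%) held the C/EBP letters and 11 (5.47%) the PU.1 letters, against 7.46 and 2.81% of the 9334 windows of all genes compared. The 201 windows belong to 127 of the 172 higher genes, so some genes count more than once. Of the 34 windows of genes lower in S100-high cells, 0 held either. The marks and counts are matches of letters and not binding sites.

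The cells were unevenly spread over the hashtags. They made up 12.7% (11.3 to 14.3%) of the cells of hashtag 0253, 10.9% (9.62 to 12.3%) of hashtag 0252, 3.19% (2.44 to 4.10%) of hashtag 0254 and 1.34% (0.829 to 2.04%) of hashtag 0255, or 254, 233, 59 and 21 cells. The intervals of 0252 and 0253 overlap, and both lie above those of 0254 and 0255, which do not overlap each other. The share in 0253 was 9.52 times that in 0255 (6.10 to 15.6). The S100-low granule cells followed the same split less steeply, with 13.3 and 12.5% in 0253 and 0252 but 5.63 and 5.54% in 0254 and 0255, the latter ratio being 2.40 (1.88 to 3.09). Of all granule cells, the S100-high ones were therefore 48.9% (44.6 to 53.3%) in 0253 and 46.7% (42.2 to 51.2%) in 0252, 36.2% (28.8 to 44.1%) in 0254 and 19.4% (12.5 to 28.2%) in 0255. The interval of 0252 overlaps those of 0253 and 0254. The median depth of all kept cells was 18769.5 UMIs in 0253, 18557 in 0252, 18099 in 0254 and 17621 in 0255, the same order as the shares, and that of the S100-high cells was 16060, 14588, 18728 and 21349 UMIs. The part of depth in the shares was not tested, and minimums on counts scaled to the median depth gave 12.6, 11.05, 3.03 and 1.27%. Each hashtag is 1 culture condition, so the spread between cultures is unknown.

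**Figure D1:**
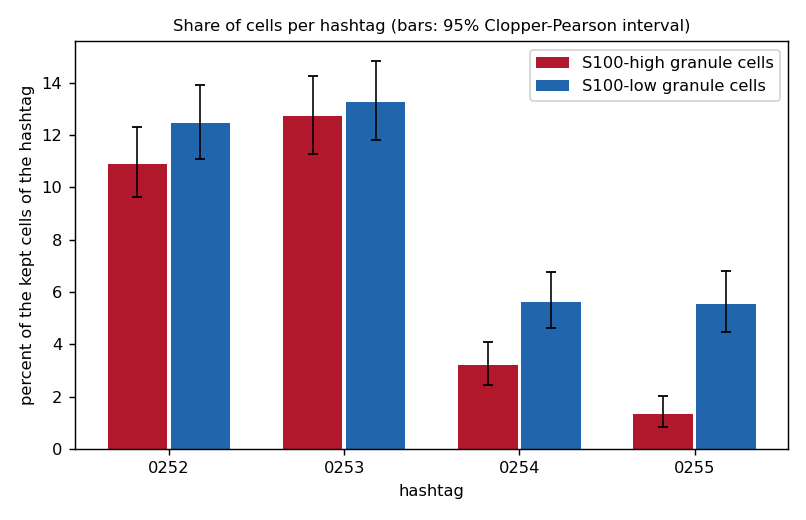
Share of the kept cells of each hashtag that were S100-high (red) or S100-low (blue) granule cells, with 95% Clopper-Pearson intervals that cover counting error. The red bars fall from 12.7% in hashtag 0253 to 1.34% in hashtag 0255, and the blue bars from 13.3 to 5.54%.

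The share of 7.51% over all hashtags moved with the cell filter. At a mitochondrial limit of 10% instead of 18%, 205 S100-high cells were left and were 27.9% of the cells, with the same order of hashtags from 41.0% in 0253 to 5.80% in 0255. Another 63 cells reached 10 UMIs of S100A8 and S100A9 with fewer than 20 of the granule genes, and 77 C1Q cells reached 10 UMIs of the pair, whatever their granule genes. At the S100 minimum, the 59 cells with 10 to 12 UMIs and the 95 cells with 7 to 9 UMIs had LYZ at 797 and 417 CPM, DEFA4 at 91.2 and 64.1 CPM, CEBPE at 98.5 and 73.4 CPM, MNDA at 35.2 and 13.4 CPM, VCAN at 24.4 and 11.9 CPM and CD34 at 16.3 and 41.8 CPM. Across the same minimum, RETN was at 126 and 104 CPM, HP at 28.9 and 26.9 CPM and CD74 at 133 and 159 CPM. At the granule minimum, the 14 cells with 20 to 29 UMIs had VCAN at 215 CPM and CD74 at 682 CPM and the 19 cells with 10 to 19 UMIs had them at 112 and 484 CPM, and DEFA4 was at 0 in both.

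The name of later neutrophil cells was checked against granule genes. Of 19 specific granule genes in the files, 5 reached 10 CPM and were all higher than in S100-low cells, against 2.08% of all genes compared, with summed levels of the list of 466 against 90.9 CPM, and 14 did not reach it. LTF (lactoferrin), LCN2, MMP8, CEACAM8 and TCN1 had 0 UMIs in all 567 cells, which allows up to 0.314 CPM (3 UMIs over the group). CAMP, the precursor of the peptide LL-37, was at 0.733 CPM (7 UMIs) and OLFM4 at 0.209 CPM (2 UMIs). The 5 genes that reached 10 CPM were HP (144 CPM), CYBB (117 CPM), CHI3L1 (89.95 CPM), SLPI (73.0 CPM) and BPI (38.2 CPM), and all of these are also made outside specific granules. Of 18 genes of gelatinase granules, secretory vesicles and mature receptors, 5 reached 10 CPM: CSF3R, the receptor of G-CSF (125 CPM), PADI4 (43.4 CPM), FCN1 (29.7 CPM), CD93 (18.3 CPM) and FPR2 (16.9 CPM). Of these, PADI4, FCN1 and FPR2 were higher than in S100-low cells, with summed levels of the list of 255 against 87.7 CPM. MMP9 was at 1.57 CPM, the Fc receptor gene FCGR3B at 0.209 CPM, and the chemokine receptor genes CXCR2 and CXCR1 at 5.55 and 0.209 CPM. Of the markers outside the rule, DEFA4 was found in 27.0%, BPI in 26.5% and CEBPE in 37.7% of the cells, and DEFA4 and BPI but not CEBPE were higher than in S100-low cells. Calprotectin and azurophil transcripts were set by the rule, and of the specific and gelatinase granule genes most were under 10 CPM, so the cells are named only by the rule.

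**Figure D2:**
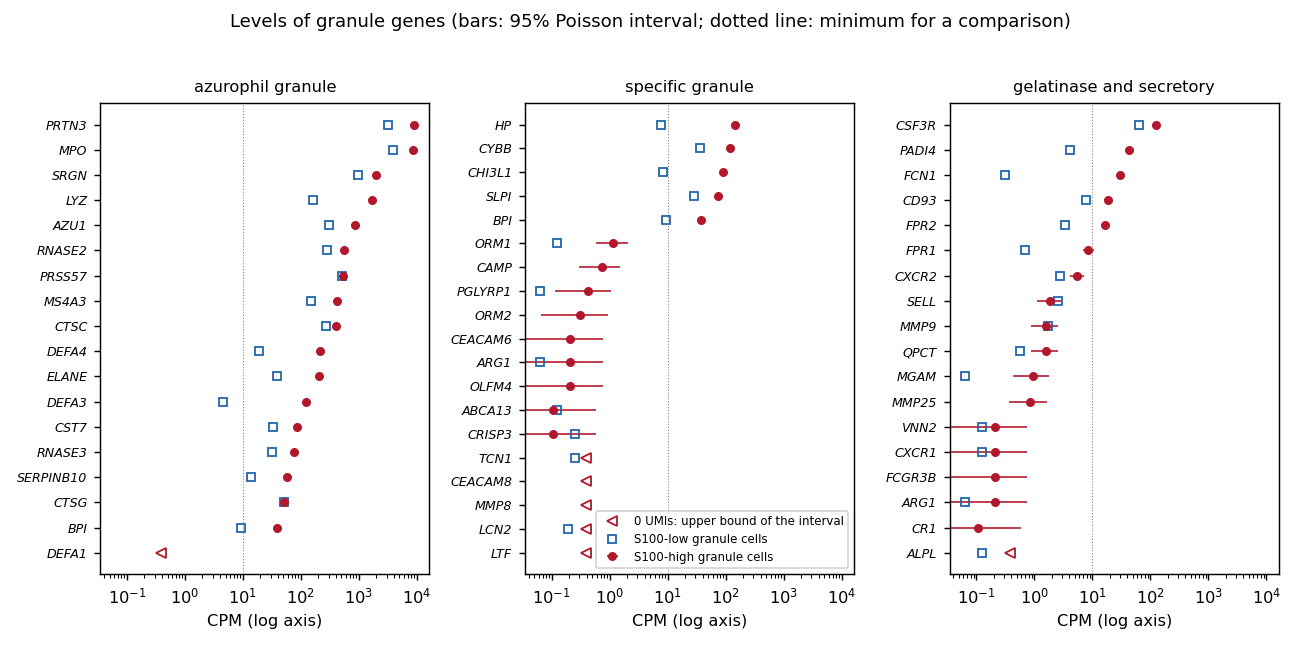
Level in S100-high granule cells (red, with 95% Poisson intervals) and S100-low granule cells (blue squares, genes at 0 not drawn) of 18 azurophil granule genes, 19 specific granule genes and 18 gelatinase and secretory genes, in CPM on a log axis. Open triangles stand for genes with 0 UMIs, at the upper bound of the interval. All azurophil genes but DEFA1 lie above the dotted line at 10 CPM, whereas 14 of 19 specific granule genes lie below it.

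Against S100-low granule cells, 172 of 8272 genes were at least 2 times higher (2.08%) and 31 at least 2 times lower (0.375%), each in the same direction in all 4 hashtags. The comparison took genes of at least 10 CPM in either group, added 5 CPM to each level and left the 11 rule genes out. The median log2 ratio of all genes compared was 0.03. The rule used S100A8 and S100A9 on the same cells, so the counts describe which genes went with that choice. The groups also differed in the granule sum (a median of 258 against 71 UMIs), and its part in the counts was not tested. Of the higher genes, CCL3 was the one with over 20% of its UMIs in a single cell.

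The 15 genes with the highest ratios included LYZ, RETN, MNDA and HP. LYZ, lysozyme, was at 1683 CPM (1657 to 1710) in the S100-high cells and 161 CPM (155 to 168) in the S100-low cells, a log2 ratio of 3.34. By hashtag, it was at 1968, 1598, 1417 and 875 CPM against 193, 154, 122 and 140 CPM, so the groups did not overlap. RETN, which codes for the hormone resistin made by human myeloid cells, was at 631, 467, 420 and 254 CPM against 48.3, 37.9, 22.0 and 33.3 CPM, a log2 ratio of 3.57. MNDA, a nuclear protein of the interferon-inducible HIN family in myeloid cells, was at 131, 124, 95.9 and 40.8 CPM against 7.85, 5.86, 0.423 and 3.64 CPM, also a log2 ratio of 3.57. In all 3 genes the S100-high cells of hashtag 0255 had the lowest level of their group and were still above every S100-low value. HP (haptoglobin) was at 156, 143, 148 and 47.6 CPM against 4.88, 8.88, 4.23 and 17.7 CPM, CSTA, a cysteine protease inhibitor, at 251, 222, 197 and 120 CPM against 44.3, 40.2, 25.4 and 31.8 CPM, and S100P at 115, 107, 79.0 and 61.2 CPM against 16.2, 17.1, 13.5 and 20.8 CPM. Also among the 15 were SLC11A1 (the metal transporter NRAMP of phagosomes), PADI4, GLIPR2, CES1, CHI3L1 and FCN1, with log2 ratios of 2.48, 2.41, 2.22, 2.15, 2.84 and 2.71. Transcripts were also found in the 168 globin-rich cells outside the granule cells, LYZ in 40.5% of them, RETN in 7.74% and MNDA in 2.98%, against 98.2, 92.2 and 61.4% of the S100-high cells. Thinned to 5000 UMIs per cell, which left out 5 S100-high cells and no globin-rich cell, the shares of S100-high cells were 90.2, 73.5 and 38.4%, and those of globin-rich cells 10.7, 2.98 and 0%.

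**Figure D3:**
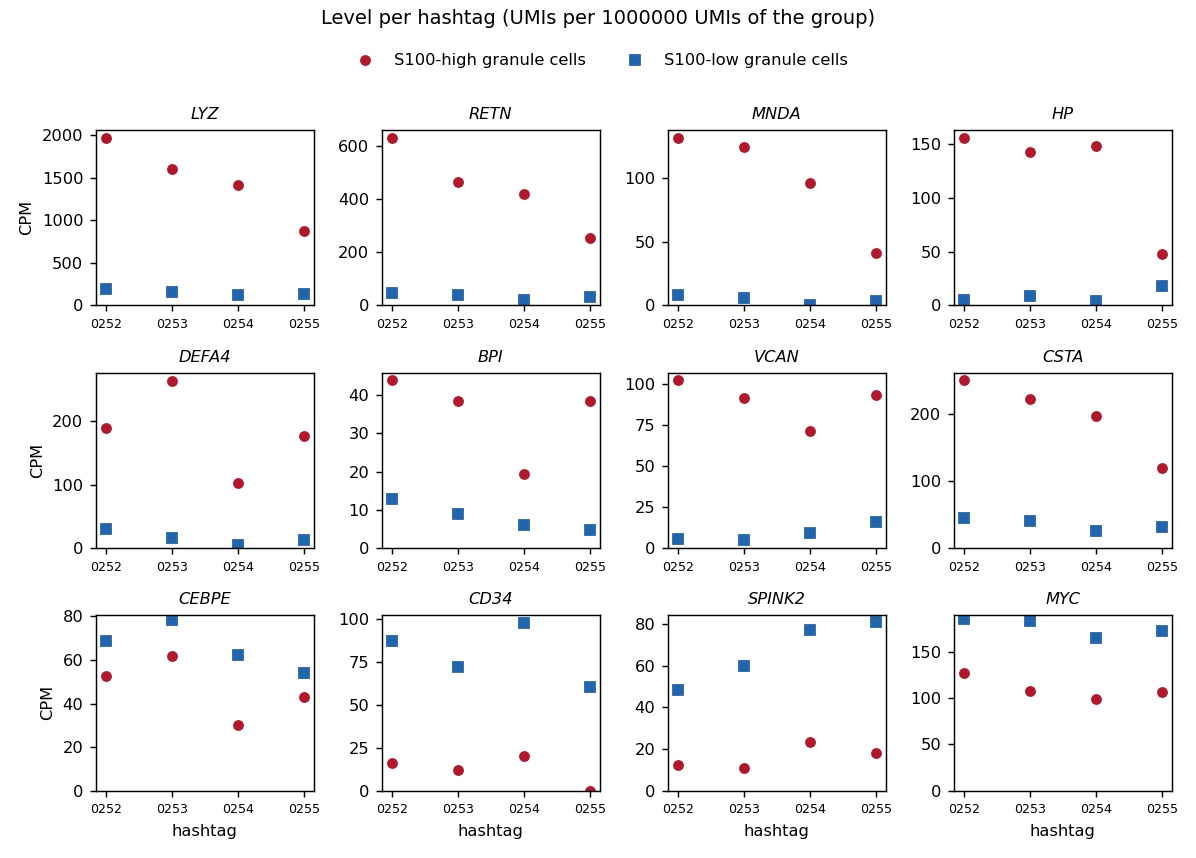
Level of 12 genes in S100-high (red circles) and S100-low (blue squares) granule cells of each hashtag, in CPM. LYZ, RETN, MNDA, HP, DEFA4, BPI, VCAN and CSTA were higher in the S100-high cells of all 4 hashtags, and CEBPE, CD34, SPINK2 and MYC lower, though CEBPE and MYC by less than 2 times over all cells.

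Azurophil granule genes that the rule did not use went the same way in part. The S100-high cells also had more of the granule genes of the rule, a median of 258 against 71 UMIs. At the S100 minimum, where the medians were 236 UMIs just inside and 232 just outside, DEFA4 was at 91.2 and 64.1 CPM. Of 13 such genes compared, 8 were higher and 0 lower, against 2.08 and 0.375% of all genes, with a median log2 ratio of 1.28 against 0.03. DEFA4, a defensin, was at 190, 263, 102 and 177 CPM against 30.0, 15.6, 5.50 and 13.0 CPM (log2 ratio 3.17). BPI, which binds and permeabilizes Gram-negative bacteria, was at 43.96, 38.6, 19.3 and 38.6 CPM against 12.7, 9.05, 5.92 and 4.69 CPM (1.59). Neither gene overlapped between the groups. A UMI of DEFA4 was found in 27.0% and of BPI in 26.5% of the S100-high cells, and at these levels a cell without a UMI is not shown to lack the transcript. SERPINB10, MS4A3, CST7, RNASE3 and SRGN, the proteoglycan that packs granules, were higher too, by log2 ratios of 1.76, 1.44, 1.28, 1.12 and 1.013. The granule proteases CTSG and PRSS57 were not, at 50.1 and 528 CPM against 51.1 and 517 CPM. DEFA3 was at 124 CPM overall but at 128, 165, 5.89 and 0 CPM by hashtag and in 6.88% of cells, so it did not go the same way in all hashtags. DEFA1, whose sequence is nearly identical, was listed with 0 UMIs, and reads of the 2 genes may have been assigned to either. Of 5 other S100 genes compared, S100P and S100A6 were higher, and S100A10 was 2 times higher over all cells but went the other way in hashtag 0255.

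Of 22 transcription factors compared, 4 were higher and 1 was lower, against 2.08 and 0.375% of all genes, and the median log2 ratio was 0.15 against 0.03. CEBPE, which drives the switch to specific granules, was at 52.5, 61.7, 30.3 and 43.1 CPM against 68.7, 78.2, 62.2 and 54.1 CPM, below the S100-low cells in every hashtag but by a log2 ratio of only -0.35. CEBPA (120 and 82.99 CPM), SPI1, which codes for PU.1 (400 and 366 CPM), CEBPB (172 and 110 CPM) and GFI1 (19.7 and 20.2 CPM) did not reach a 2-fold difference. The higher ones were ID2, KLF2, EGR1 and KLF6, at log2 ratios of 1.28, 1.22, 1.11 and 1.07. KLF4, a factor of monocytes, was at 26.4 CPM against 3.502 CPM but went the other way in hashtag 0255. GATA2, a factor of stem cells and of mast cells, was the lower one, at 15.7 CPM against 50.8 CPM (log2 ratio -1.43).

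Among the 31 lower genes were 4 of the progenitor list and 2 of the eosinophil list. CD34, the surface protein by which the starting cells were selected, was at 15.9, 12.2, 20.2 and 0 CPM against 87.4, 71.7, 97.3 and 60.4 CPM, a log2 ratio of -2.15, without overlap. Of 9 progenitor genes compared, 4 were lower, against 0.375% of all genes, and 0 higher, with SPINK2 at 13.3 against 60.7 CPM and AVP at 8.38 against 35.0 CPM. IGLL1, a part of the surrogate light chain, was at 19.2 against 130 CPM, and C1QTNF4, MDK, MARCKSL1, KCNH2, ANGPT1 and the T cell receptor subunit gene CD3D had log2 ratios of -1.54, -1.52, -1.46, -1.69, -1.41 and -1.82. Of 3 lymphoid genes compared, CD3D was the 1 lower and 2 were higher, against 0.375 and 2.08% of all genes. IL7R, among the higher ones, was at 17.4 against 2.25 CPM. CLC, the Charcot-Leyden crystal protein of eosinophils, was at 12.8 against 125 CPM and PRG3 at 18.6 against 93.7 CPM. The other eosinophil-list genes compared did not follow, with RNASE3 higher and RNASE2 at 559 against 279 CPM (log2 ratio 0.99). The summed level of the list was 707 against 679 CPM, with RNASE2, also an azurophil-list gene, the most abundant. That sum includes the rule genes EPX (24.8 against 111 CPM) and PRG2 (15.1 against 35.4 CPM), both at lower levels. A single S100-high cell held 57.4% of their CLC UMIs, and cells with both EPX and PRG2 had been left out of both groups by the rule, so the eosinophil values describe what remained. MYC was at 114 against 180 CPM, short of 2 times (log2 ratio -0.63).

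Transcripts of DNA synthesis and mitosis genes were present in both groups, and cells in cycle were not counted. Of 18 DNA synthesis genes and 20 mitosis genes compared, none was 2 times higher or lower, against 2.08 and 0.375% of all genes. Median log2 ratios were -0.17 and 0.07, and summed levels 1901 against 2183 CPM and 2852 against 2704 CPM. The 15 glycolysis genes and the 20 genes of the secretory pathway had no called member either. At those shares, lists of this size would hold few or no called genes, so these counts do not set the lists apart. CYBB, which codes for the catalytic subunit of the phagocyte NADPH oxidase, was higher by a log2 ratio of 1.58. Of 18 receptor and adhesion genes, 5 were higher, against 2.08% of all genes, namely CLEC5A, CXCR4, ITGB2, TYROBP and FCER1G at log2 ratios of 1.55, 1.24, 1.23, 1.19 and 1.07, and CD34 was the lower one. CSF3R missed 2 times, at 125 against 63.1 CPM.

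Of 17 listed genes of monocytes and macrophages, 7 were compared and 3 were higher, against 2.08% of all genes: VCAN, the matrix proteoglycan versican (92.9 against 7.07 CPM), FCN1 and APOE. CSF1R was at 116 against 60.8 CPM (log2 ratio 0.88). The summed level of the list, which includes the rule genes C1QA, C1QB and C1QC, was 478 against 166 CPM, with CSF1R the most abundant gene. The defining monocyte gene CD14 was at 2.30 CPM, CD163 at 0.419 CPM, and 1 of the 17 genes had no UMI. By hashtag, the summed level was 470, 521, 390 and 356 CPM against 149, 177, 151 and 204 CPM. Of 6 HLA class II genes compared, 0 were higher and 0 lower, against 2.08 and 0.375% of all genes, so that count does not set the list apart. The summed level of the HLA class II list was 322 against 200 CPM. The part of cells with monocyte or macrophage genes in the other ratios was not tested. Globin genes were at a summed level that was set by a few cells: 3 of the 567 cells held 86.0% of the UMIs of 6 globin genes, and 2 cells held 90.2% of those of PPBP and PF4. Whether 2 cells in 1 droplet contributed was not tested beyond Scrublet, which called 8 of the 567 cells doublets and none of those 3 or 2.

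Against the C1Q cells, 361 of 8579 genes were at least 2 times higher (4.21%) and 469 at least 2 times lower (5.47%). Both counts are over all cells, with each gene in the same direction, but not always by 2 times, in all 4 hashtags. The median log2 ratio of all genes compared was 0.17, and on a median-of-ratios scale 241 genes were higher and 592 lower, so the split between the directions depends on the scale. All 10 HLA class II genes were lower, with a median log2 ratio of -4.32 and summed levels of 322 against 7452 CPM. HLA-DRA, an antigen-presenting chain, was at 70.9, 30.6, 20.2 and 22.7 CPM against 1637, 1186, 1731 and 1799 CPM, and CD74, its chaperone, at 184 against 2672 CPM. Of 12 monocyte and macrophage genes compared, 10 were lower and 0 higher, among them SPP1 (57.1 against 2022 CPM), APOE (61.2 against 417 CPM), MS4A7 (3.87 against 124 CPM) and CD14 (2.30 against 103 CPM), and 10 of 15 interferon response genes were lower. LTB, A2M and AGR2 were lower by log2 ratios of -4.25, -4.31 and -4.08. VCAN, MNDA, CHI3L1 and SLC11A1 were not called, with VCAN at 92.9 against 57.9 CPM and MNDA at 119 against 62.5 CPM.

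Higher than in C1Q cells were 11 of 13 azurophil genes, against 4.21% of all genes. The 13 had a median log2 ratio of 3.04 against 0.17 for all genes, led by DEFA4 (5.11), MS4A3 (4.07), CST7 (3.80) and SERPINB10 (3.46). CEBPE was at 53.4 against 2.70 CPM, MYB at 65.1 against 9.45 CPM and GFI1 at 19.7 against 1.35 CPM, log2 ratios of 2.92, 2.28 and 1.96. LPPR3 and RGL4 were also among the 10 highest, by 3.57 and 3.39. Of the 20 secretory pathway genes, 10 were higher and 0 lower, against 4.21 and 5.47% of all genes. Their median log2 ratio was 1.01 against 0.17 for all genes, close to the 2-fold cut, so this count depends on the scale. LYZ was at 1683 against 291 CPM, RETN at 514 against 196 CPM, and HP at 144 against 39.9 CPM. The C1Q cells include the 77 that reached the S100 minimum, and the part of these 77 in the values of the C1Q cells was not tested. HBZ also passed, but 93.5% of its UMIs were in 1 cell.

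The 567 cells also varied among themselves. MPO, PRTN3, AZU1, S100A8 and S100A9 are genes of the rule, which set a minimum on each sum, so the relations between them are given as a description of the cells chosen. Over cells, the level of MPO per UMI had a Spearman correlation of 0.86 with PRTN3 and 0.81 with AZU1 but 0.17 with S100A8, and S100A8 had 0.80 with S100A9, 0.70 with RETN, 0.64 with MNDA and 0.52 with LYZ (567 cells of 1 library, which share its depth and free RNA). Thinned to 5000 UMIs, in 562 cells, these became 0.84, 0.77 and 0.14 for MPO and 0.69, 0.57, 0.47 and 0.46 for S100A8. By hashtag, in the order 0252, 0253, 0254 and 0255, MPO with S100A8 had 0.05, 0.22, 0.19 and 0.58.

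Cells were ordered by their share of UMIs on the 4 granule genes and cut into 3 equal groups of 189 cells, an order chosen after the data were seen. From the lowest to the highest group, DEFA4 was at 5.26, 81.5 and 613 CPM, BPI at 1.94, 21.7 and 102 CPM, CST7 at 4.15, 43.0 and 238 CPM, and CEBPE at 17.4, 43.0 and 110 CPM. VCAN ran the other way, at 175, 78.9 and 3.51 CPM, as did the fractalkine receptor gene CX3CR1 at 56.2, 16.8 and 2.46 CPM, CD74 at 323, 130 and 67.1 CPM and CSF1R at 169, 103 and 62.9 CPM. These genes are named for their trend along an order made from rule genes, and their values are a description. RETN (486, 585 and 473 CPM) and S100A9 (1869, 2171 and 1801 CPM) had like levels in the lowest and the highest group. SPI1 (436, 400 and 354 CPM) and CEBPA (108, 133 and 120 CPM) varied by less than 1.5 times. The chaperone genes HSPA5 and CALR had higher levels along the order, from 514 to 1455 CPM and from 1034 to 2772 CPM. They do not stand for the other genes of the secretory pathway list. The lowest group also held 120 CPM of SPP1 and 30.7 CPM of C1QC, the macrophage genes, against 14.4 and 1.05 CPM in the highest, and its median UMIs were 18677 against 14444. All hashtags were in each group, with 7 cells of hashtag 0255 in every one.

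UMIs of DEFA4 and VCAN were seldom found in the same cell. DEFA4 and BPI had already run opposite to VCAN along the order above, so these shares describe the same cells and are not a separate test. In the 168 globin-rich cells, DEFA4 was found in 1.19%, VCAN in 2.38% and BPI in 0% of cells, against 27.0, 30.2 and 26.5% of the S100-high cells. Of the 153 cells with a DEFA4 UMI, 12 (7.84%, 4.12 to 13.3%) had a VCAN UMI, against 38.4% (33.7 to 43.3%) of the cells without DEFA4, and 255 cells had neither. Thinned to 5000 UMIs, VCAN was in 4 of 129 cells with DEFA4 (3.10%, 0.851 to 7.75%) and in 120 of 433 without it (27.7%, 23.5 to 32.2%). Of the cells with BPI, 4.0% (6 cells, 1.48 to 8.50%) had a VCAN UMI at full depth, and 0 of 87 after thinning. MNDA was different, being in 75.8% of cells with DEFA4 and 56.0% of those without. Cells with each gene were found in every hashtag: DEFA4 was in 24.9, 28.3, 28.8 and 28.6% and VCAN in 26.2, 35.0, 27.1 and 23.8% of the S100-high cells of 0252, 0253, 0254 and 0255, with intervals that overlap.

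In 3 groups of the same size by S100A8 and S100A9 per UMI, RETN was at 178, 417 and 1191 CPM, MNDA at 28.7, 95.5 and 299 CPM, HP at 46.9, 123 and 331 CPM, FCN1 at 1.79, 17.6 and 91.6 CPM and LYZ at 763, 1527 and 3390 CPM. Both DEFA4 (43.1, 192 and 509 CPM) and VCAN (33.3, 73.6 and 216 CPM) increased, whereas PRTN3 (8562, 9472 and 9158 CPM) stayed near its level. CEBPE was at 67.4, 44.6 and 42.5 CPM. Among the genes lower than in S100-low cells, C1QTNF4 fell from 91.5 to 19.2 CPM, MARCKSL1 from 93.8 to 25.8 CPM and IGLL1 from 33.8 to 3.75 CPM. They do not stand for the other lower genes. The calcium-binding chaperone CALR fell from 2394 to 1089 CPM. The median UMIs were 20161 in the lowest and 11745 in the highest group, and the correlation of the S100 level with depth was -0.56. The part of depth in these trends was not tested. Groups formed within each hashtag, which do not hold depth fixed, gave log2 ratios of highest to lowest close to those over all cells, 2.73 against 2.70 for RETN and 3.27 against 3.42 for DEFA4.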

How the data were processed

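Cell Ranger 6.0.1 was run by the authors with hg19 as the reference. They deposited raw UMI counts of 32738 genes and 4 hashtags in 10836 barcodes, without normalization, together with a hashtag call for each barcode, which was used as deposited. Of 8488 barcodes with 1 hashtag, those with at most 36000 UMIs, 6000 genes and 18% mitochondrial UMIs were kept, the limits of the study's methods. The 3' reads count transcript ends, so levels do not scale with gene length.

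UMIs were summed per group. CPM and ratios were computed with numpy 2.4.6, scipy 1.17.1 and pandas 2.3.3, with 5 CPM added in log2 ratios and genes under 10 CPM in both groups left out. Barcodes with more than 1 hashtag were thereby left out. No further doublets were removed; Scrublet (scanpy 1.11.5, expected rate 6%) called 99 barcodes and served as an alternative. Steps were tested on simulated data. The genes named are the markers, the rule genes, members of gene lists (339 of 344 entries found) and the 15 (S100-low cells) or 10 (C1Q cells) most changed in each direction. The members and lists were chosen with earlier results of these data known. Alternatives were other minimums and limits, pseudocounts, scales, depths and hashtags left out.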

Additional observations from a re-analysis of the deposited data

Results flagged for a closer look

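Barcodes without a single hashtag were not part of the comparisons. Of 809 barcodes called negative for hashtags and within the limits, 10 (1.24%, 0.594 to 2.26%) met the rule, above the 0.371% that a count of 0 would allow. Their median depth was 9955 UMIs, with MPO at 15664 CPM, DEFA4 at 1387 CPM and LYZ at 578 CPM. Of 834 barcodes called doublets, 73 (8.75%, 6.92 to 10.9%) met it, with a median of 20554 UMIs and MPO at 6187 CPM, DEFA4 at 209 CPM and LYZ at 1018 CPM. Any count above 3 exceeds the limit for a count of 0, and MPO is a gene of the rule, so these values are a description. These barcodes drew attention because they hold the same transcripts outside the cells analysed. Groups of 4 hashtags of different condition were not examined for outlying samples.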

How the results depend on the processing

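The share of S100-high granule cells became 9.74% with an S100 minimum of 5 UMIs, 5.42% with 20 UMIs and 27.9% at a mitochondrial limit of 10%, and stayed between 7.10 and 7.91% under the other 6 alternatives. The hashtags kept their order of shares in all 9. Against S100-low cells, 254 genes were higher and 65 lower with a pseudocount of 1 CPM, 59 and 11 with 20 CPM, 75 and 16 with a minimum of 50 CPM, and 296 and 83 without the cells of 5 to 19 S100 UMIs. With 1 hashtag left out, 150 to 202 were higher and 31 to 36 lower. Against C1Q cells, 580 genes were higher and 567 lower with a pseudocount of 1 CPM, 130 higher and 211 lower with 20 CPM, and 175 and 200 with a minimum of 50 CPM. With 1 hashtag left out, 368 to 425 were higher and 461 to 503 lower. The cause was not tested, except that a higher minimum leaves fewer genes (3137 and 3196 compared). Leaving each gene's highest cell out, chosen after seeing the data, gave 170 higher and 34 lower against S100-low cells, of which 169 and 31 were among those reported. Of 754 single-gene values under alternatives, 726 moved by no more than the farthest single hashtag does or, for groups ordered within the cells, by less than 0.5 (log2), 28 moved further and none of a called gene changed sign. Thinning to 5000 UMIs per cell gave 168 higher and 44 lower against S100-low cells, of which 123 and 23 were among those reported (71.5 and 74.2% of them), and 468 and 487 against C1Q cells, of which 304 and 423 were. The 21 cells of hashtag 0255 limit every value given for it.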
